A study of Mus musculus with 13 samples.

Results

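Mouse embryonic fibroblasts (MEFs) labelled PERK -/- were sampled untreated and after 1 h and 2 h of thapsigargin (Tg), and these 3 of the 13 libraries of the study hold the first hours of endoplasmic reticulum (ER) stress without the kinase PERK. Tg was used at 1 µM and blocks the calcium pump of the ER, so that the ER loses calcium and unfolded proteins build up in it. The measurement was ribosome footprint profiling, the sequencing of mRNA fragments protected by ribosomes, without cycloheximide. A value per gene is therefore a relative level of footprints on its coding sequence within a library. It joins mRNA amount and translation, which cannot be told apart here because mRNA levels were not measured in these libraries. The groups used here are the PERK -/- control, PERK -/- with Tg for 1 h and PERK -/- with Tg for 2 h, beside PERK WT MEFs in the same 3 states and PERK -/- MEFs after 5 h and 8 h of Tg, with 1 library each. All MEFs were grown in serum with added amino acids and beta-mercaptoethanol and plated at low density the day before harvest. Strain, age, number of clones and the deleted part of the gene are not given in the sources used here.

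PERK is 1 of 3 sensors of the unfolded protein response. When it is active it phosphorylates the initiation factor eIF2alpha, which lowers translation initiation as a whole and lets the mRNA of the transcription factor ATF4 be translated, and ATF4 and its partner CHOP then raise genes of amino acid supply, redox balance and cell death. The other two sensors are IRE1, which splices the mRNA of the factor XBP1 and can cleave other mRNAs at the ER membrane, and ATF6, which is cut in the Golgi, and both raise ER chaperones and degradation factors. The comparison asks which changes in protein synthesis Tg brings within 2 h in cells that lack the PERK arm.

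The 3 PERK -/- libraries held 6735073, 10011722 and 14799515 expected counts for control, 1 h and 2 h, and the WT libraries at the same times held 11949174, 3609292 and 2525029. Eif2ak3, the gene of PERK, carried 74, 90 and 113 expected counts in the PERK -/- control, 1 h and 2 h libraries, or 10.99, 8.99 and 7.64 CPM (counts scaled to the library total), against 21.26 CPM in the WT control. Its TPM (RSEM's level per unit of coding length, scaled to a fixed sum) was 11.17 in the PERK -/- control and 6.03 in the WT control, so the 2 units order the genotypes differently and the footprints do not check the label. All 12 fibroblast markers were in the table and summed to 10287, 7514 and 6629 TPM in the 3 PERK -/- libraries, with the collagens below among them. Summed epithelial, endothelial, blood and muscle markers were at or under 10.1 TPM in each library, and summed neural markers, most of them from Tubb3 and Nes, lay between 32.0 and 44.9 TPM. Pecam1, Hba-a1, Myod1, Myog, Myh3 and Gfap had no count in any of the 3 libraries. In bulk libraries, fewer cells of a type and fewer footprints per cell cannot be told apart.

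The early change of a gene is the mean of its log2 changes at 1 h and at 2 h against the PERK -/- control, from TPM values raised to at least 4, and a gene is said to have risen or fallen where this mean is at least 2-fold. Of 22406 genes, 10432 reached a TPM of 2 when averaged over the 10 MEF libraries, the edge lying between Nudt16 at 1.999 and Zfp873 at 2.0 TPM. With 1 library per condition there is no replicate check and no test between conditions. Intervals are exact 95% intervals of the ratio of counts per library total, with 1 h and 2 h pooled. They cover counting error only, since footprints without molecular identifiers are not independent molecules. An early change in TPM can lie outside its interval. The change is taken from RSEM's TPM raised to at least 4 and not from counts, and the mean weights both Tg libraries equally. For Nr4a1 it was 1.34 in TPM and 2.33 on pooled counts.

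Far more genes fell than rose. Of the 10432 expressed genes, 51 (0.489%) rose and 410 (3.93%) fell, with a median of -0.09. At 1 h alone 75 genes (0.719%) were at least 2-fold above the control and 353 (3.38%) at least 2-fold below it, and at 2 h these counts were 65 (0.623%) and 603 (5.78%). The same call was made in both libraries for 35 genes upward (0.336%) and 251 downward (2.41%). Scaling by edgeR's TMM factors added 0.17 to every early log2 change above the floor and gave 100 rises and 241 falls, so that 29.3% of calls were upward in place of 11.1%.

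The changes moved with base composition. Genes whose coding sequence held under 44% G and C had a median early change of 0.17, and 0.903% of them fell, while genes at 60% or more had a median of -0.39, and 10.8% of them fell. The trend was present at 1 h and steeper at 2 h, ran the other way in WT cells and was nearly flat in PERK -/- cells at 5 h and 8 h. The median GC content was 50.44% for genes that rose, 58.24% for genes that fell and 52.83% for all. With a smooth GC trend taken out, 52 of 10023 genes (0.519%) rose and 230 (2.29%) fell, and counts of list members without the trend are given below wherever they differ.

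**Figure D1:**
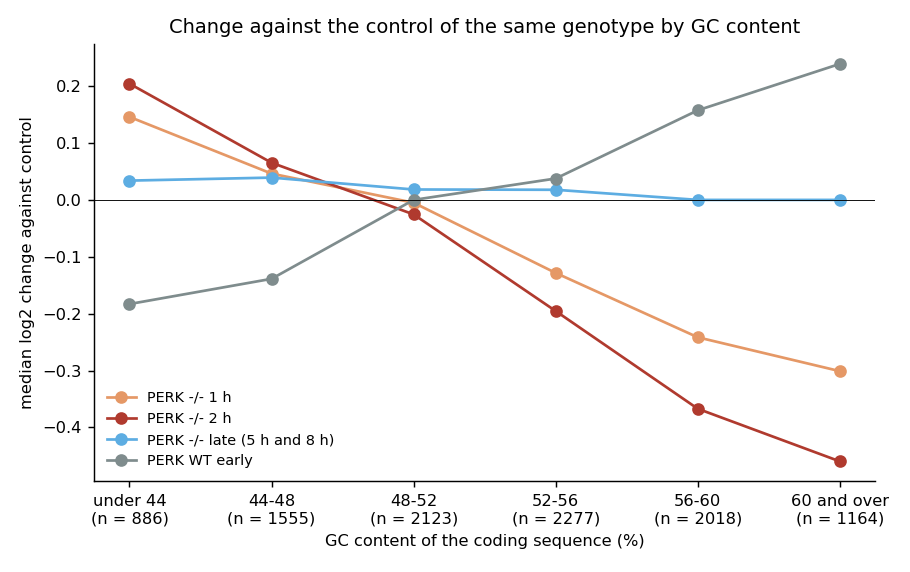
Median log2 change against the untreated control of the same genotype (vertical axis) for expressed genes grouped by the GC content of their coding sequence (horizontal axis, percent, with the number of genes), as lines for PERK -/- at 1 h, 2 h and late and for PERK WT early. The PERK -/- early lines fall from left to right, to below -0.2 for 1 h and below -0.4 for 2 h, the WT line rises, and the late line stays near 0.

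The largest rise was that of Rcan1 (chr16:92391953-92470867, mm10), an inhibitor of the calcium-activated phosphatase calcineurin. Rcan1 was at 31.1 TPM in the PERK -/- control, 247.8 TPM at 1 h and 169.3 TPM at 2 h, both Tg libraries lying far above the control. Its early log2 change was 2.72, with an interval of 2.45 to 2.99 from 118, 1399 and 1457 counts. In WT cells it went from 22.6 TPM to 157.4 and 167.6 TPM, an early change of 2.84, and in PERK -/- cells after 5 h and 8 h its mean change was 0.40 against the same control. The promoter window of Rcan1 is shown because it holds the cyclic AMP response element TGACGTCA (capitals), which 3.83% of the 8045 expressed genes with a window and 2 of the 36 risen genes with a window held. The window lies at an internal start site of the gene, on the minus strand, at chr16:92400029-92400328 of RefSeq GRCm38.p6, and runs from 250 bases before the start to 50 after it.
Rcan1: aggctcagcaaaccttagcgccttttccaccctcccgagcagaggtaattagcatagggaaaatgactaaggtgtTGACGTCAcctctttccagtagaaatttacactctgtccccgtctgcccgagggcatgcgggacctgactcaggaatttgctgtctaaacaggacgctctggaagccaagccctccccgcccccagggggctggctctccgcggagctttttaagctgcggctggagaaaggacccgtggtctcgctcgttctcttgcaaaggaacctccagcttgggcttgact

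Among the other genes of ER calcium handling the store sensors had the lowest values. Of 28 expressed members, Rcan1 rose and Stim2 fell, and the list median was -0.18. Stim2, an ER calcium sensor that opens channels of the plasma membrane when stores run low, was at 19.2 TPM in the control, 6.93 TPM at 1 h and 3.6 TPM at 2 h. Its early change was -1.87 (interval -2.15 to -1.69), and its paralog Stim1 went from 25.8 to 14.6 and 13.4 TPM (early change -0.88). Stim2 had an early change of -1.88 in WT cells too. Atp2a2, the calcium pump that Tg blocks in these cells, was at 262.1, 271.3 and 265.9 TPM, within 0.05 log2 units of the control at both times.

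Signalling genes of other kinds were among the largest rises. Ccl7, a chemokine that draws monocytes, was at 16.8 TPM in the control, 90.0 TPM at 1 h and 66.4 TPM at 2 h, an early change of 2.2 (interval 1.64 to 2.87). The related chemokine gene Ccl2 went from 120.0 to 185.0 and 130.03 TPM (early change 0.37), and of 23 expressed NF-kB targets and cytokines Ccl7 alone rose and none fell, with a list median of -0.03. Npr3, the clearance receptor of natriuretic peptides, was at 12.6, 39.7 and 35.6 TPM (early change 1.57), and Gjb2, the gap junction protein connexin 26, at 50.4, 134.3 and 105.9 TPM (early change 1.24). Each of these genes was higher in both Tg libraries than in the control, and higher at 1 h than at 2 h. Gjb2 had an early change of -0.52 in WT cells and Npr3 one of 0.95.

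The rest of the 15 largest rises with at least 300 counts were Fam150a (2.08), LOC102637269 (1.73), Ermard (1.43), Zfp948 (1.38), Hist1h2ad (1.35), Nr4a2 and Nr4a1 (both 1.34), 1810022K09Rik (1.32), Nars2 (1.28), Polr2k (1.25) and Eif3j2. Nars2 encodes the mitochondrial asparaginyl-tRNA synthetase and Polr2k a small subunit shared by the nuclear RNA polymerases. On counts the change of Polr2k was 0.78 (interval 0.55 to 1.03), under 2-fold. Eif3j2 held 0, 0 and 429 counts in control, 1 h and 2 h, while the near-identical Eif3j1 held 1384, 2256 and 3562, so reads of the pair may have been split differently between libraries and no fold is given. LOC102637269 held 38, 97 and 564 counts, then 0 at 5 h and 162 at 8 h of Tg, and Hist1h2ad is a core histone gene with near-identical copies. Whether reads of both genes were assigned alike in each library was not tested, and their folds are uncertain. Of the 51 genes that rose, 32 had at least 300 counts over the 3 libraries and 14 had under 20 counts in the control. The last gene counted as risen was Cmc2 at 1.0067 and the next below it S100a16 at 0.9999.

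**Figure D2:**
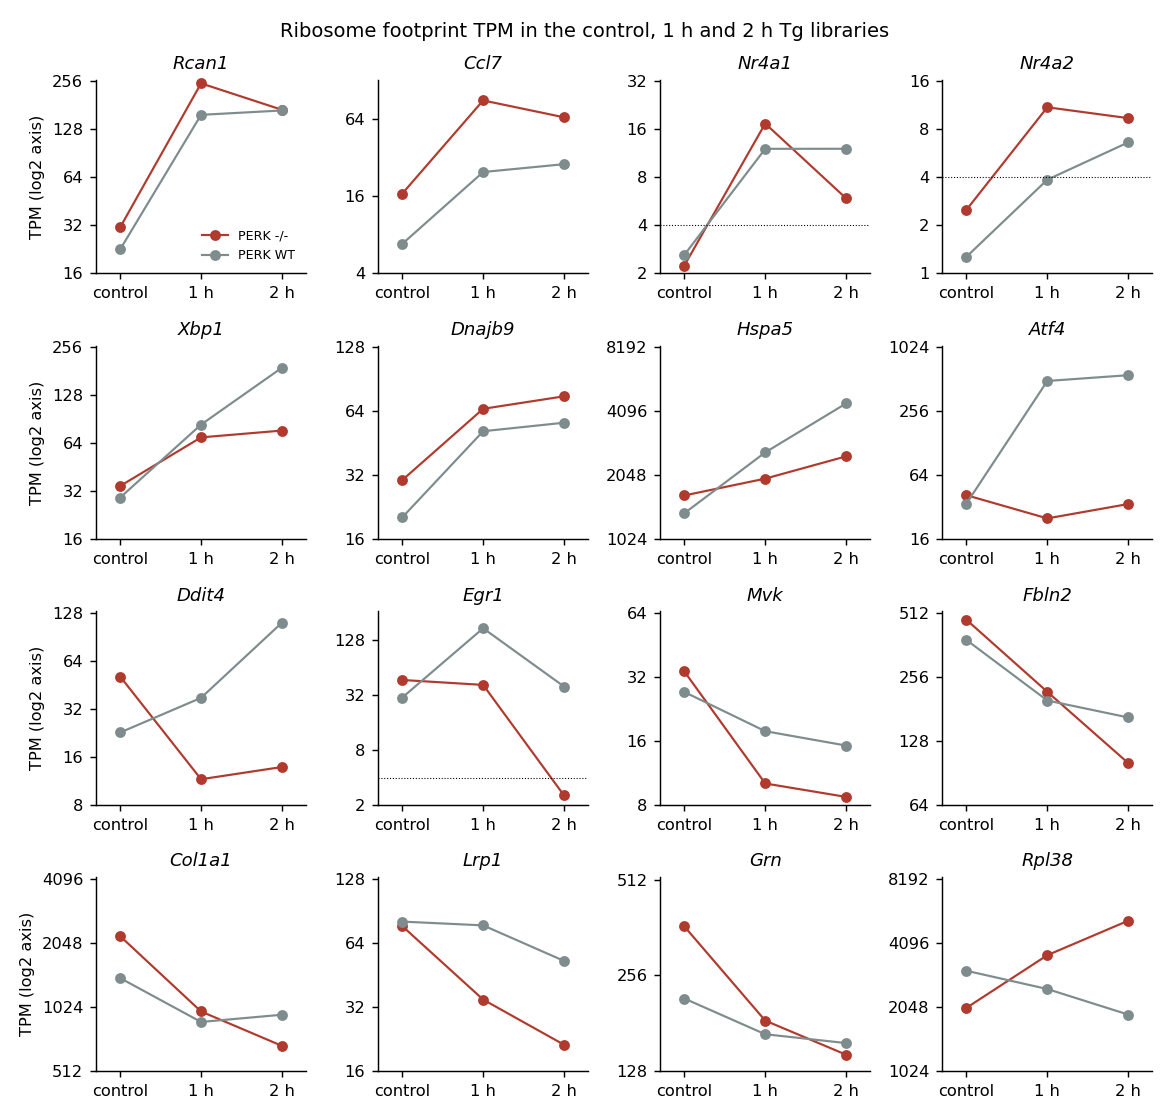
TPM (vertical axes, log2 scale) of 16 genes in the untreated, 1 h and 2 h libraries (horizontal axes) of PERK -/- (red) and PERK WT (grey) MEFs, 1 library per point, with the floor of 4 TPM dotted where it lies in range. Rcan1 rises in both genotypes, Atf4, Ddit4 and Egr1 part between them, and Col1a1 goes from 2207 to 975 and 672 TPM in PERK -/- cells.

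Among genes tied to the IRE1 and ATF6 side of the response, Xbp1 and Dnajb9 rose and most other changes were small. Splicing of Xbp1 and cutting of ATF6 were not measured, so the activity of these sensors was not tested. Xbp1 (chr11:5520659-5525893), the factor that IRE1 splices, was at 34.5, 69.5 and 76.7 TPM in the 3 libraries. Its early change was 1.08 (interval 1.00 to 1.38), and it was the 1 member of 10 sensors, factors and proteases of this arm that rose, none having fallen (list median -0.09). Dnajb9, an ER co-chaperone and a common target of spliced XBP1, was at 30.4, 65.8 and 75.3 TPM (early change 1.21, interval 1.03 to 1.57). Both genes were above the control in both Tg libraries. Ern1, which encodes IRE1, was near the floor at 4.64, 4.07 and 3.38 TPM, and Atf6 was at 27.9, 26.1 and 28.3 TPM.

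Among the 36 expressed ER chaperones and folding enzymes, Dnajb9 rose and Uggt1, which rechecks the folding of glycoproteins, fell from 94.5 to 57.2 and 38.5 TPM (early change -1.01). The list median was -0.27, below that of all genes, and 24 of the 36 had a negative early change. With the GC trend taken out the median was -0.21 and Dnajb9 was at 0.89, so that no member rose, and with TMM or DESeq2 factors Uggt1 no longer passed 2-fold. Hspa5, the major ER chaperone BiP, was at 1646 TPM in the control, 1975 TPM at 1 h and 2515 TPM at 2 h (early change 0.44, interval 0.52 to 0.56 on counts). Manf, a secreted ER stress protein, was at 369.9, 423.1 and 590.8 TPM (early change 0.43), and Sdf2l1 at 38.9, 41.3 and 57.3 TPM (0.32). These 3 genes were highest at 2 h and stayed under 2-fold. Calr and Canx, the lectin chaperones calreticulin and calnexin, were lower than the control in both Tg libraries, at 4038, 3155 and 3560 TPM for Calr and 1437, 1068 and 1092 TPM for Canx.

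Degradation, translocation and transport genes were flat on this scale. No member of the 23 expressed genes of ER-associated degradation, the 39 of ER translocation and N-glycosylation or the 37 of ER-Golgi transport rose or fell, and the list medians were -0.22, -0.06 and -0.06 (-0.04, 0.12 and 0.11 with TMM, which took Herpud1 past 2-fold). The nearest to 2-fold was Edem2, which helps to pick misfolded glycoproteins for degradation, with an early change of -0.96. The highest was the degradation factor Herpud1, at 36.5 TPM in the control, 53.4 TPM at 1 h and 80.8 TPM at 2 h. Its log2 change was 0.55 at 1 h and 1.15 at 2 h, and in WT cells its early change was 3.12. The ubiquitin ligase gene Syvn1 was at 50.5, 37.7 and 43.3 TPM (early change -0.32) and had an early change of 1.5 in WT cells.

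Promoter windows are shown for Hspa5 and Herpud1 because they hold the ER stress elements that ATF6 and XBP1 are known to bind with the factor NF-Y. The ER stress element ERSE (CCAAT and CCACG with 9 bases between them, both strands searched) was in 7 of 29 ER chaperone genes with a window (24.1%), against 0.186% of expressed genes and 0.137% of all 27025 symbols with a window. The genes were Calr, Canx, Creld2, Dnajc3, Hsp90b1, Hspa5 and Pdia6. ERSE was also in 2 of 16 ER-associated degradation genes with a window, Derl3 and Syvn1. The element ERSE-II has ATTGG and CCACG with 1 base between them, the second part shared with ERSE. It was in Dnajb11 and Herpud1 among the chaperone and degradation lists and in 0.0994% of expressed genes. The windows are chr2:34771840-34772139 for Hspa5 and chr8:94386179-94386478 for Herpud1, both on the plus strand of RefSeq GRCm38.p6, with the element in capitals. The Herpud1 window also holds the letters TGATGNAA of the ATF4 site described below, on the opposite strand and left in small letters.
Hspa5: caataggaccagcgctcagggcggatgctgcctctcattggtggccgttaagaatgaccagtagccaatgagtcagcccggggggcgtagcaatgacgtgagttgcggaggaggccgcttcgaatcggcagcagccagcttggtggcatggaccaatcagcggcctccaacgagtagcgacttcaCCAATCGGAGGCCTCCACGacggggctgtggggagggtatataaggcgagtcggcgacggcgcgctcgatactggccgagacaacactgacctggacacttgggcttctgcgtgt
Herpud1: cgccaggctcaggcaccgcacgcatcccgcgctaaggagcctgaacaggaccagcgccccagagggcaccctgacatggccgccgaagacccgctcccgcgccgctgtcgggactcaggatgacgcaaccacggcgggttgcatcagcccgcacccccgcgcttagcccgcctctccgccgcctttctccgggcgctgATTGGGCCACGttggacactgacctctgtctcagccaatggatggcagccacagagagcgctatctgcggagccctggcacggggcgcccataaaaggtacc
None of the 7 chaperone genes with an ERSE rose. Their early changes ran from -0.41 to 0.44 with a median of 0.02, which was -0.09 at 1 h and 0.25 at 2 h, and the 22 chaperone genes with a window and no ERSE had a median of -0.35.

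No gene of the ATF4-CHOP list rose. Of its 32 expressed members, 4 fell (Ddit4, Trib3, Bbc3 and Sesn2), beside 3.93% of all expressed genes. Of the 32, 5 were at or under 4 TPM in all 3 libraries. The median was -0.25, or -0.08 with the GC trend taken out, where Ddit4 and Trib3 were the 2 that fell. The list holds known targets of factors downstream of PERK, and in WT cells 15 of the 32 rose (3.89% of all expressed genes rose in WT and 2.38% fell) and the median was 0.96. Ddit4, an inhibitor of the growth kinase mTORC1, was at 51.1 TPM in the PERK -/- control, 11.6 TPM at 1 h and 13.9 TPM at 2 h. Its early change was -2.01 (interval -2.2 to -1.64) in PERK -/- and 1.5 in WT cells, where it went from 22.8 to 37.6 and 111.0 TPM. Trib3, a pseudokinase that restrains ATF4 and CHOP, went from 12.5 to 3.16 and 2.07 TPM in PERK -/- cells (89, 34 and 34 counts) and from 4.12 to 10.1 and 104.9 TPM in WT cells.

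Other members of that list differed in size and time. Ddit3, which encodes CHOP, was at 6.91, 8.28 and 14.2 TPM in PERK -/- cells, from 21, 42 and 105 counts, and its log2 change was 0.26 at 1 h and 1.04 at 2 h. In WT cells Ddit3 went from 13.8 to 271.9 and 442.0 TPM. Nupr1, a small stress-induced chromatin protein, was at 146.8, 71.5 and 78.8 TPM (early change -0.97), below the control at both times. Chac1, an enzyme that breaks down glutathione, was at 15.3, 12.1 and 7.75 TPM (early change -0.66), and the asparagine synthetase gene Asns at 44.3, 35.6 and 35.6 TPM (-0.31). Atf4 itself was lowest at 1 h, at 41.4, 25.1 and 34.2 TPM.

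The promoter window of Trib3 is shown because the C/EBP-ATF response element, the site of ATF4 with C/EBP factors, was frequent in this list. The letters TGATGNAA were found on either strand in 9 of 28 members with a window (32.1%), against 2.59% of expressed genes and 4.51% of all symbols, in Asns, Atf3, Chac1, Fgf21, Nupr1, Pck2, Slc7a11, Trib3 and Vldlr. These 9 had a median early change of -0.31 in PERK -/- and 1.16 in WT cells, and the 19 members with a window and without the letters had -0.20 and 1.13. The window is chr2:152344011-152344310 on the minus strand of RefSeq GRCm38.p6, and the element (capitals, here on the opposite strand) begins 15 bases after the start site.
Trib3: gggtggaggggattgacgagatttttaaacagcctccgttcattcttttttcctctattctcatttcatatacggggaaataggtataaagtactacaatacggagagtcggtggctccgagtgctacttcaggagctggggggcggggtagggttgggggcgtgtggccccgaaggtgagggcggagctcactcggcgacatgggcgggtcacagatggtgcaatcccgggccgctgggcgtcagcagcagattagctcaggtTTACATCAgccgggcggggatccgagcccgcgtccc

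Genes that act on eIF2alpha moved apart. Ppp1r15b, the constitutive partner of the eIF2alpha phosphatase, fell from 34.1 TPM to 16.98 TPM at 1 h and 12.6 TPM at 2 h (early change -1.22, interval -1.36 to -1.03), and was the 1 of 19 listed kinases, partners and subunits to pass 2-fold. The inducible partner Ppp1r15a was at 4.82, 6.1 and 4.09 TPM in PERK -/- cells (early change 0.05) and went from 7.01 to 98.4 and 98.1 TPM in WT cells. The subunit genes Eif2s1 (245.7, 366.1 and 384.9 TPM) and Eif2s2 (360.1, 513.3 and 545.4 TPM) were above the control at both times, by 0.61 and 0.56 log2 units on average.

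Immediate-early genes, which answer growth factors and stress without new protein synthesis, parted between 1 h and 2 h. Of 46 expressed members, 3 rose (Nr4a1, Nr4a2 and Ptgs2) and 7 fell (Egr1, Gadd45a, Ier2, Ier3, Junb, Ier5 and Dusp6). Over all expressed genes 0.489% rose and 3.93% fell. The list median was 0.15 at 1 h and -0.39 at 2 h, and the number at least 2-fold below the control was 2 at 1 h and 12 at 2 h. With the GC trend taken out the early median was 0.07 in place of -0.13, 2 members rose and 4 fell. These coding sequences are rich in G and C (median 59.7%).

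The orphan nuclear receptors and Ptgs2 made up the rising side. Nr4a1 was at 2.24 TPM in the control, 17.4 TPM at 1 h and 5.9 TPM at 2 h, from 28, 341 and 178 counts. Nr4a2 was at 2.5, 10.97 and 9.38 TPM, from 31, 207 and 270 counts. Both encode nuclear receptors induced by calcium and cyclic AMP, both were highest at 1 h, and their early change of 1.34 is on values floored at 4 TPM, while the intervals from counts were 1.78 to 2.93 for Nr4a1 and 1.54 to 2.64 for Nr4a2. Ptgs2, the inducible prostaglandin synthase COX-2, was at 239.4, 616.6 and 405.4 TPM (early change 1.06, interval 1.03 to 1.14). The matricellular gene Ctgf went from 443.9 to 994.9 and 539.4 TPM, a log2 change of 1.16 at 1 h and 0.28 at 2 h.

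The falling side was steepest between 1 h and 2 h. From 1 h to 2 h, 29 of all expressed genes (0.278%) were at least 2-fold higher and 75 (0.719%) at least 2-fold lower, and 13 of the 75 were among the 46 immediate-early genes. Egr1, a zinc finger factor driven by ERK signalling, was at 46.6 TPM in the control, 41.1 TPM at 1 h and 2.55 TPM at 2 h, from 512, 687 and 65 counts. Ier3, an early response gene tied to survival, was at 137.0, 93.2 and 28.4 TPM, and Junb, a subunit of the factor AP-1, at 79.3, 50.6 and 22.2 TPM. Myc was at 90.4 TPM in the control, 104.5 TPM at 1 h and 38.3 TPM at 2 h. All 4 were lower at 2 h than in either other library.

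Dusp6, Spry2 and Errfi1, inhibitors of growth factor signalling, are told here because they were among the 8 largest falls from 1 h to 2 h, so that their low value at 2 h follows from the choice. Dusp6, a phosphatase that acts on ERK, was at 18.2, 15.9 and 4.89 TPM. Spry2, a brake on receptor tyrosine kinases, was at 14.1, 18.0 and 5.81 TPM, and Errfi1, a brake on the EGF receptor, at 19.0, 20.2 and 6.32 TPM. Each was near the control at 1 h and at least 2-fold below it at 2 h. Nr4a1 and Ermard were, with Egr1, Ier3, Myc and these 3, the 8 largest falls from 1 h to 2 h. The 8 largest rises from 1 h to 2 h were Eif3j2, Gm5601, LOC102637269, Commd8, Tmem175, Anapc15, Irx2 and Txnip, and of these Txnip, a redox regulator, went from 9.46 to 5.42 and 10.9 TPM. Tmem175 was 1.07 higher at 2 h than at 1 h in TPM, but 0.21 on counts, with an interval of -0.17 to 0.59 that holds 0.

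**Figure D3:**
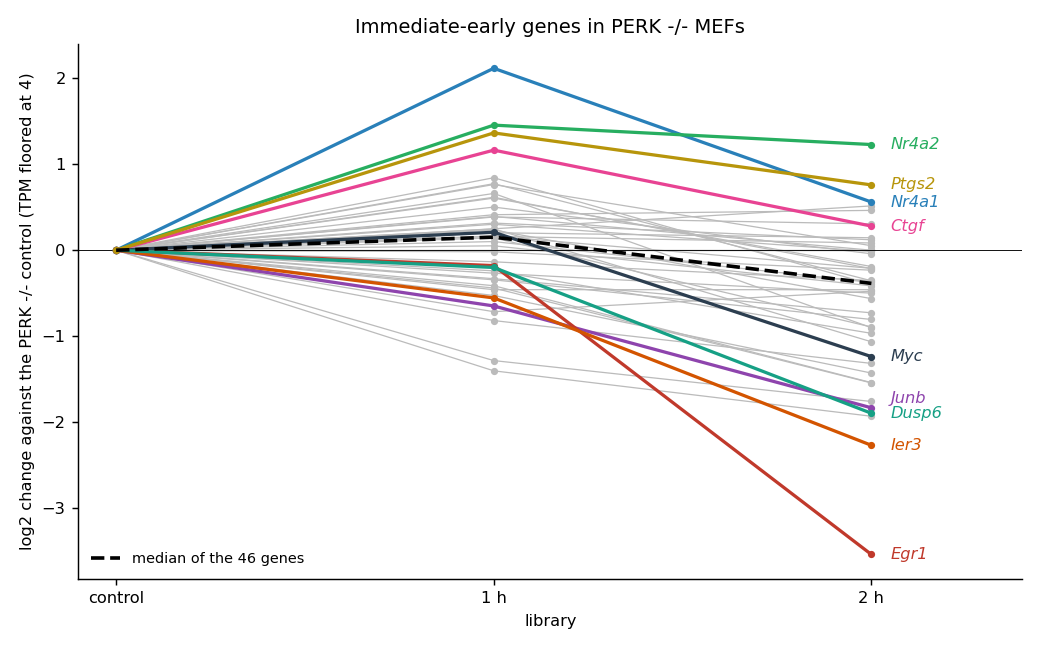
Log2 change against the PERK -/- control (vertical axis, TPM floored at 4) at 1 h and 2 h (horizontal axis) for the 46 expressed immediate-early genes, 1 line per gene, with 9 genes coloured and named and the list median dashed. The median goes from 0.15 at 1 h to -0.39 at 2 h, Nr4a1 peaks at 1 h, and Egr1 ends lowest.

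Collagens had the lowest median of the 36 lists over expressed members. Of 20 expressed collagen chains, none rose and 11 fell, beside 3.93% of all expressed genes that fell. All 20 had a negative early change, and the median was -1.09. Their summed TPM was 4459, 2238 and 1646 in the 3 libraries, and they took 2.14%, 1.09% and 0.82% of all counts. Col1a1, the main chain of type I collagen, was at 2207, 975.2 and 671.9 TPM (early change -1.45, interval -1.43 to -1.41 on counts), and its partner Col1a2 at 921.1, 479.3 and 356.8 TPM (-1.16). Col6a3, a chain of the microfibril collagen VI, fell furthest, from 30.5 to 14.1 and 6.59 TPM (-1.66). Every chain named was lower at 2 h than at 1 h. With the GC trend taken out the median was -0.84 and 6 chains fell, beside 2.29% of all genes. The falls were 7 with TMM and 8 with DESeq2 factors. The same list had a median of -0.35 in WT cells, where none fell.

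Other matrix proteins followed, with exceptions. Of 40 expressed members, none rose and 10 fell, beside 3.93% of all expressed genes, and the median was -0.69. With the GC trend taken out the median was -0.55 and 10 of 37 fell, beside 2.29% of all genes. The falls were 7 of 40 with TMM and 7 with DESeq2 factors. Fbln2, an elastic fibre and basement membrane protein, was at 477.2 TPM in the control, 218.5 TPM at 1 h and 100.9 TPM at 2 h (early change -1.68, interval -1.67 to -1.60). Fibronectin, Fn1, was at 588.7, 338.7 and 230.8 TPM (-1.07), and the perlecan gene Hspg2 at 95.5, 43.5 and 25.5 TPM (-1.52). Emilin1, an elastic fibre protein, fell furthest, from 36.3 to 13.1 and 8.63 TPM (-1.77). The member with the highest value was Ctgf (0.72). Sparc, among the most abundant members, was at 2847, 2047 and 1798 TPM (-0.57).

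Cell surface receptors and lysosomal proteins, which also enter the ER, had medians below that of all genes. Of 32 expressed growth factor and matrix receptors, none rose and 6 fell (Lrp1, Itga7, Pdgfrb, Itga11, Itgb3 and Igf2r), with a median of -0.55. Over all expressed genes 3.93% fell, and 2.29% with the GC trend taken out. Receptor falls were 4 without the GC trend, where the median was -0.42, and 4 with TMM or DESeq2 factors. Lrp1, a large endocytic receptor, was at 76.9, 34.7 and 21.3 TPM (-1.50), and Pdgfrb, a receptor of platelet-derived growth factor, at 68.0, 33.4 and 25.1 TPM (-1.23). Itgb1, the shared beta subunit of many integrins, was at 1279, 1234 and 1073 TPM (-0.15). The receptor list thus spans values from -1.50 to 0.12. Of 38 lysosomal hydrolases and membrane proteins, 7 fell, all 38 were negative, and the median was -0.64. Grn, the lysosomal protein progranulin, was at 365.5, 184.5 and 144.0 TPM (-1.17). With the GC trend taken out the lysosomal median was -0.61 and 1 of 38 fell, a count near the share of all genes (2.29%). The lysosomal falls were 2 with TMM and 3 with DESeq2 factors.

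mRNAs that IRE1 is known to cleave were a short list. Of 6 expressed members, 3 fell (Pdgfrb, Hgsnat and Col6a1), beside 3.93% of all expressed genes. The median was -0.95, or -0.76 with the GC trend taken out. The falls were 2 without the GC trend and 1 with TMM or DESeq2 factors. Bloc1s1, the best known of these substrates, had an early change of -0.83, Sparc one of -0.57 and Pmp22 one of -0.09. Pdgfrb, Col6a1 and Sparc are also counted in the lists of receptors, collagens and matrix proteins.

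Sterol synthesis genes had nearly the same low values at 1 h and 2 h. Of 34 expressed sterol and fatty acid genes, none rose and 10 fell, beside 3.93% of all expressed genes. Of the 34, 33 were negative, and the median was -0.67, with -0.65 at 1 h and -0.69 at 2 h. The early median was -0.65 and 7 genes fell with the GC trend taken out (2.29% of all genes did), and 6 fell with TMM and 8 with DESeq2 factors. Among the genes that fell were Tm7sf2 (-2.31, under 300 counts), Mvk (-1.86), Lss (-1.36), Mvd and Fdps (both -1.19), Acat2 (-1.19), Dhcr7 (-1.15), Srebf2 (-1.12) and Nsdhl (-1.09). Of these, all but Srebf2, the transcription factor of the pathway, are enzymes of cholesterol synthesis or of its precursors.

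The values of single sterol genes show the size of the fall. Mvk, mevalonate kinase, was at 34.1 TPM in the control, 10.1 TPM at 1 h and 8.74 TPM at 2 h (interval -2.05 to -1.57). Fdps, which makes farnesyl diphosphate, was at 727.4, 319.8 and 318.6 TPM, as low at 1 h as at 2 h. Hmgcs1, an early enzyme of the pathway, was at 441.0, 304.4 and 443.7 TPM (-0.26). The list median was -0.43 in WT cells and 0.20 in PERK -/- cells after 5 h and 8 h, against the same control.

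**Figure D4:**
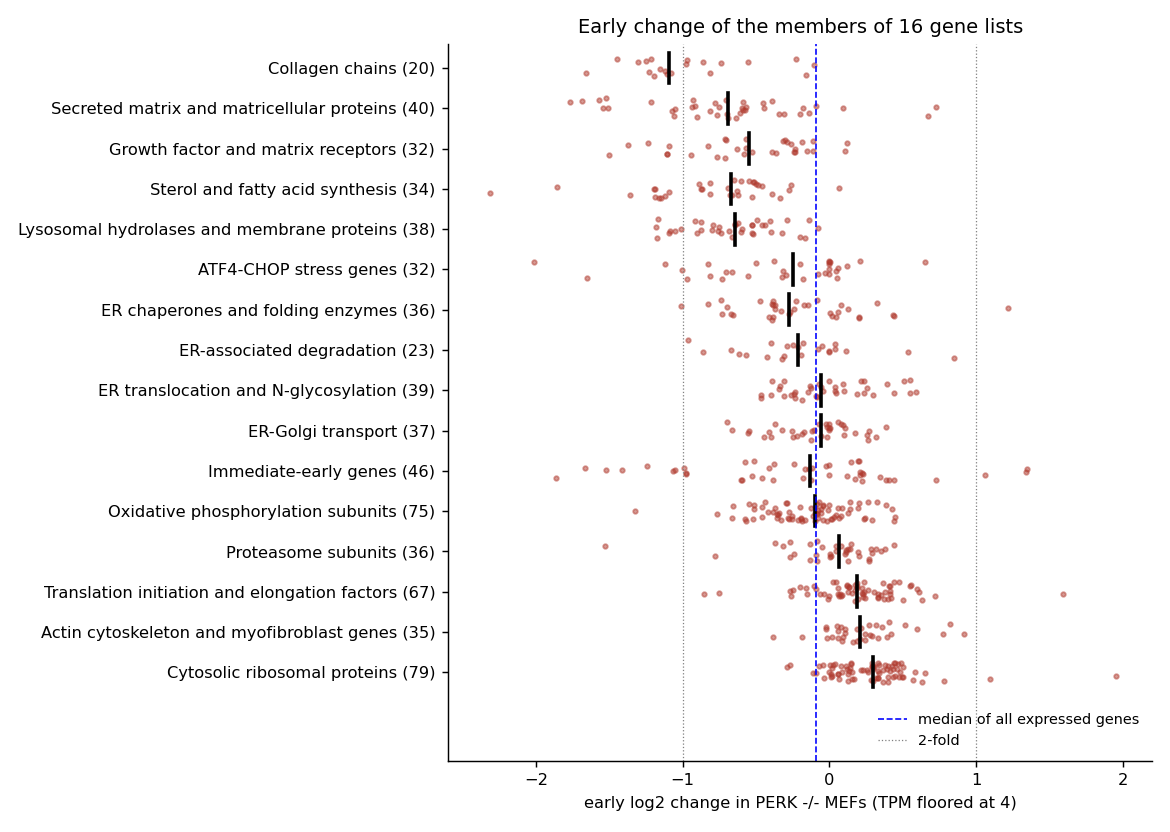
Early log2 change in PERK -/- MEFs (horizontal axis, TPM floored at 4) of each expressed member of 16 gene lists (vertical axis, number of members in parentheses), 1 point per gene, with the list median as a black bar, the median of all expressed genes dashed and 2-fold dotted. Collagens have a median of -1.09 and cytosolic ribosomal proteins one of 0.29. Points of one list scatter widely around its bar.

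Other large falls were not of one kind. Of the 410 genes that fell, 239 had at least 300 counts over the 3 libraries. Pbxip1 (29.9, 4.49 and 1.98 TPM, early change -2.82) encodes a cytoskeleton-linked protein that binds PBX factors, and Gngt1 (110.3, 13.3 and 19.0 TPM, -2.80) a G protein gamma subunit. Gngt1 had an early change of 1.08 in WT cells. Gm5601 (-2.67), Dbpht2 (-2.15), Gm42355 (-2.12), Pcyox1l (-2.12) and 9530077C05Rik (-1.99) are less well described. Hist1h3h held 963, 0 and 0 counts, while the 12 histone H3 genes together held 28992, 37442 and 53436, or 4305, 3740 and 3611 CPM, so reads of near-identical copies may have been assigned to other copies and no fold is given.

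Amino acid transporters fell in 5 of 18 expressed members, beside 3.93% of all expressed genes. Of the 18, 4 were at or under 4 TPM in all 3 libraries. Slc1a5, a glutamine transporter, was at 33.3 TPM in the control, 11.4 TPM at 1 h and 9.35 TPM at 2 h (-1.69, interval -1.88 to -1.44). The glutamate transporter gene Slc1a3 was at 26.2, 8.22 and 6.66 TPM (-1.82). Slc1a4 (-1.42), Slc38a7 (-1.34) and Slc6a9 (-1.34) were the others that fell. The subunits of the leucine transporter did not pass 2-fold, with Slc7a5 at 120.0, 131.2 and 98.3 TPM and Slc3a2 at 263.3, 267.0 and 202.0 TPM, and the list median was -0.04. With the GC trend taken out 5 members fell, beside 2.29% of all genes.

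Ribosomal proteins had the highest median of the 36 lists as reported, but not with the GC trend taken out, where they were at 0.32 and actin cytoskeleton genes at 0.35. Of 79 expressed cytosolic ribosomal proteins, 2 rose (Rpl38 and Rpl34), beside 0.489% of all expressed genes. None of the 79 fell and 8 were negative, and the median was 0.29, with 0.27 at 1 h and 0.29 at 2 h. They took 5.90%, 7.21% and 7.63% of all counts, the control being lowest. Rpl38 was at 2028, 3591 and 5218 TPM (1.09, interval 1.15 to 1.29), and Rpl34 rested on 9, 32 and 133 counts in PERK -/- cells at 4.68, 11 and 29.9 TPM against 1063 TPM in the WT control. Rps6 was at 927.5, 1042 and 1250 TPM (0.30). The list median was -0.30 in WT cells. Among 67 translation factors, which had a median of 0.19, Eif3j2 alone passed 2-fold, and the elongation factor gene Eef1a1 was at 10526, 12274 and 11464 TPM (0.17).

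Cytoskeletal genes were also on the higher side without passing 2-fold. None of 35 expressed actin cytoskeleton genes rose or fell, and the median was 0.21, or 0.35 with the GC trend taken out, where Acta1, skeletal muscle actin, passed 2-fold (1.04). Cnn1, calponin of contractile cells, was highest at 43.9, 75.8 and 90.3 TPM (0.91). Acta2, smooth muscle actin, was at 2126, 3238 and 3196 TPM (0.60) and Tagln at 1828, 2687 and 2543 TPM (0.52), all above the control at both times. Actb was at 12556, 13191 and 12260 TPM (0.02).

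Stress and cell cycle lists held a few moving members, beside 0.489% of all expressed genes that rose and 3.93% that fell. Counts this small in short lists are not read as a result about the lists. Of 34 NRF2 and antioxidant genes, Fth1, the ferritin heavy chain, rose (96.9, 181.5 and 226.7 TPM, 1.07), and Gsta4 (-2.05, under 300 counts), Mt2 (-1.12) and Mt1 (-1.06) fell. Of 31 cyclins, CDKs and inhibitors, Ccnl1, a cyclin of RNA processing, rose (1.01) and Cdkn2b (-1.41), Cdkn1c (-1.24), Cdkn2d (-1.23) and Ccng2 (-1.03) fell, 3 of the 4 being inhibitors of cyclin-dependent kinases. Of 24 cytosolic heat shock proteins, Hspa1a fell from 16.6 to 11.8 and 5.64 TPM (-1.02) and none rose, with Hspa8 at 2447, 2848 and 2729 TPM. In the BCL2 family, Bbc3, a killer protein induced by p53 and CHOP, was the 1 of 12 to fall (22, 13 and 18 counts, -1.12). Most of these calls were lost with the GC trend taken out, where 0.519% of all genes rose and 2.29% fell. Fth1, Gsta4, Cdkn2b and Ccng2 still passed 2-fold, while Mt1 (-0.84), Mt2 (-0.97), Ccnl1 (0.98), Cdkn1c (-0.93), Cdkn2d (-0.96), Hspa1a (-0.73) and Bbc3 (-0.80) did not.

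Other lists had medians from -0.26 to 0.16, beside -0.09 for all expressed genes, of which 0.489% rose and 3.93% fell. The medians were -0.10 for 75 oxidative phosphorylation subunits (Uqcr11 fell), 0.06 for 36 proteasome subunits (Psmb8 fell), -0.08 for 74 mitochondrial ribosomal proteins (Mrps12 and Mrpl34 fell), 0.07 for 17 replication licensing genes, 0.16 for 32 snRNP proteins and -0.03 for 12 SR splicing factors. They were -0.10 for 20 cytosolic tRNA synthetases, -0.20 for 22 glycolysis genes, -0.11 for 17 TGF-beta feedback and ID genes and -0.26 for 13 linker and replacement histones, none of whose members passed 2-fold. Without the GC trend the median was 0.03 for mitochondrial ribosomal proteins, of which 1 fell, 0.03 for TGF-beta feedback genes and -0.05 for linker and replacement histones. Of 247 Zfp genes 1 rose and 5 fell (1 and 4 without the GC trend), 76 being at or under 4 TPM in all 3 libraries. Of 58 core histone genes 3 rose and 7 fell, with a median of -0.14, or 0.16 with the GC trend taken out, where 4 rose and 1 fell, and copies of these genes share reads.

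The early change differed between the genotypes for many genes, and this difference is untested with 1 library per condition. Of the expressed genes, 370 (3.55%) had an early change at least 2-fold higher in PERK -/- than in WT cells and 1226 (11.8%) one at least 2-fold lower, and with GC trends taken out these were 226 (2.25%) and 788 (7.86%) of 10023. Among genes with at least 300 counts in each genotype, the 8 most negative differences were those of Hist1h2ag, Hist1h2ao and Hist1h2ap (-4.47 each, identical rows that share reads), Atf4 (-4.41), Gngt1 (-3.88), Ppp1r15a (-3.76), Ddit4 (-3.51) and Egr1 (-3.32). Of genes with fewer counts, Trib3 (-4.63), Chac1 (-4.27) and Gadd45a (-3.77) were at values of that size. The 8 most positive were 1810022K09Rik (2.27), Polr3g (2.14), Cacna2d1 (2.13), Polr2k (2.12), Fgfr1op2 (2.02), Gm32886 (2.00), Rala (1.95) and Mpp6 (1.92). On counts the difference of Polr2k was 1.52, with a 95% interval of counting error of 1.14 to 1.895. Cacna2d1, a calcium channel subunit, stood at 25.5, 19.98 and 21.4 TPM in PERK -/- cells while it went from 29.1 to 5.46 and 5.32 TPM in WT cells.

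Lists set side by side show where the genotypes parted. The difference was at least 2-fold downward for 28 of 46 immediate-early genes, 20 of 32 ATF4-CHOP genes and 44 of 58 core histone genes. Over all expressed genes it was downward for 11.8%, or 7.86% with GC trends taken out. With GC trends taken out, which run in opposite directions in the 2 genotypes, the list counts were 16 of 44, 19 of 32 and 20 of 58. The median difference of core histones was then -0.66 in place of -1.26. The difference was at least 2-fold upward for 15 of 79 ribosomal proteins, beside 3.55% of all expressed genes, with a list median of 0.51. Without the GC trends it was upward for 11 of 77, beside 2.25% of all genes, with a median of 0.58. The median difference was -0.75 for collagens, -0.52 for lysosomal proteins, -0.33 for sterol genes and -0.08 for ER chaperones. Without the GC trends these medians were -0.33, -0.45, -0.21 and -0.03. Ier3 went from 89.2 to 461.1 and 194.5 TPM in WT cells, and Egr1 from 29.9 to 171.0 and 39.5 TPM, both highest at 1 h there.

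**Figure D5:**
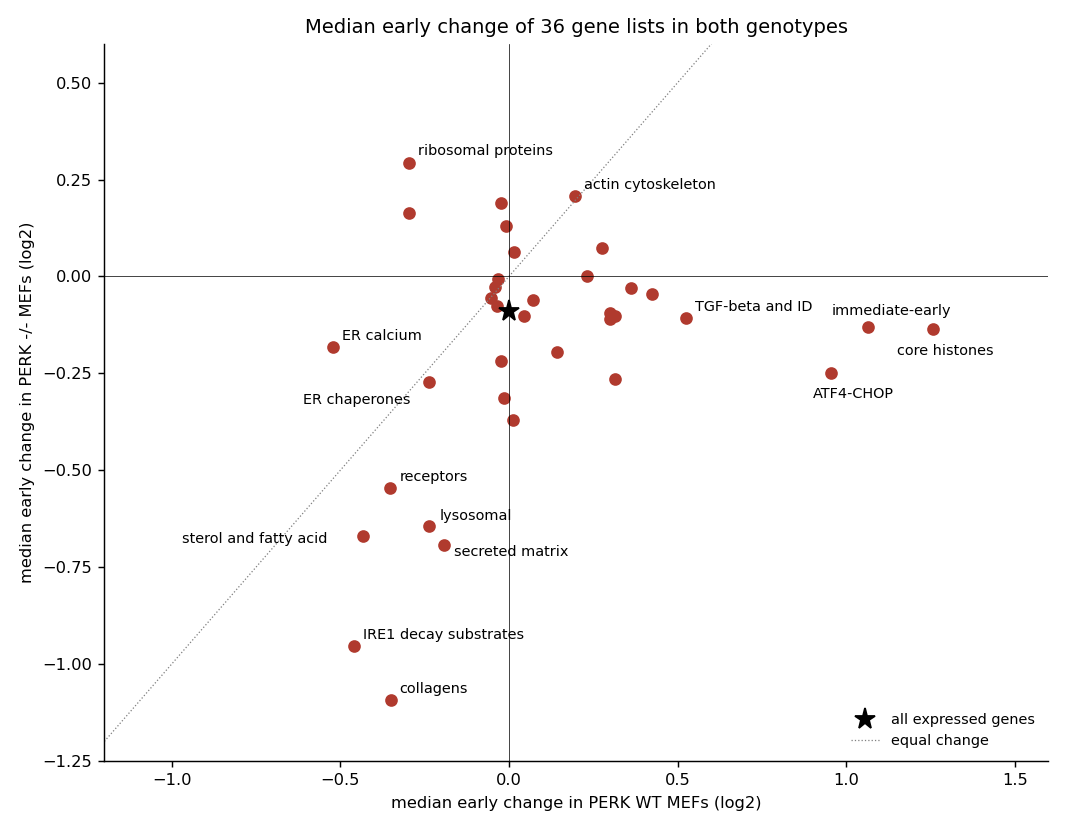
Median early log2 change of each of 36 gene lists in PERK WT MEFs (horizontal axis) and in PERK -/- MEFs (vertical axis), 1 point per list, with a star for all expressed genes and a dotted line of equal change. Immediate-early, ATF4-CHOP and core histone lists lie to the right at WT medians near 1 with PERK -/- medians under 0, and collagens lie lowest at -1.09.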

How the data were processed

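The sources used here are the deposited gene tables of 10 MEF libraries, read with the study's methods and labels. The authors discarded ribosomal and transfer RNA with STAR, placed the remaining footprints by Bowtie2 on mm10 RefSeq coding regions shortened at both ends, and deposited RSEM expected counts for each gene. The deposited TPM values are the authors' RSEM levels per length, scaled to a fixed sum, so all changes are relative to the other genes of a library and not absolute amounts of protein synthesis. Versions of these tools are not given in the sources used here. The tables of NIH3T3 cells were not used here.

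Genes averaging 2 TPM or more were kept, values under 4 were raised to 4, and a change of 2-fold was called, as in the study. Members and gene lists were chosen with earlier results of these data known. Named were the 15 largest rises and falls and the 8 largest differences between times and between genotypes among genes with at least 300 counts, Eif2ak3, and members of 36 lists with the largest changes or a told role. Some genes that meet these rules are not reported here. GC content came from GENCODE coding sequences for 96.1% of expressed genes, and a lowess trend (fraction 0.3) was removed as an alternative. Other alternatives changed the floor, pseudocount, filter, threshold, unit, depth and scaling (edgeR 4.0.16 and DESeq2 1.42.0 factors only). Promoter motifs were counted in RefSeq windows of 300 bases. Python 3.11.15 with pandas 2.3.3, scipy 1.17.1 and statsmodels 0.14.6 was used, and the steps were tested on simulated data. Library totals ranged from 2525029 to 14799515 counts over the libraries compared, and the shallow WT libraries limit the precision of the genotype difference. Reads of near-identical genes may have been split between copies.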

Additional observations from a re-analysis of the deposited data

Results flagged for a closer look

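For the genes that follow, both PERK -/- Tg libraries lay at least 2-fold to the same side of their control, while both WT Tg libraries lay to the other side of theirs. The difference between genotypes was not tested, with 1 library per condition, and its values are given without an explanation. The early change in PERK -/- minus that in WT was -4.47 for each of Hist1h2ag, Hist1h2ao and Hist1h2ap, -2.71 for Hist1h4a and -1.71 for Hist1h2ai, all histone genes with near-identical copies. It was -3.88 for Gngt1, -3.51 for Ddit4, -3.18 for Gm42355, -2.82 for the glycine transporter gene Slc6a9 and -2.33 for Uqcr11, a small subunit of respiratory complex III. It was -2.13 for the laminin gene Lamb2, -1.77 for Hspg2 and -1.42 for the metallothionein gene Mt1. In the other direction it was 2.27 for 1810022K09Rik and 2.12 for Polr2k. On counts the PERK -/- changes of Polr2k were 0.70 at 1 h and 0.84 at 2 h, both under 2-fold.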

How the results depend on the processing

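No paired analysis was possible because each condition has 1 library and every replicate number is 1. Leaving out 1 of the Tg libraries gave 75 rises and 353 falls for 1 h alone and 65 and 603 for 2 h alone, and no control could be left out. Where a value moved, the cause was not tested. The number of genes that rose, 51 as reported, was 130 with a floor of 1 TPM, 90 with a pseudocount, 161 with counts per library total, 100 with TMM, 91 with DESeq2 factors, 168 in libraries thinned to the smallest total, and 305 and 10 at 1.5-fold and 3-fold. The number that fell, 410, was 718 with the lower floor, 647 with counts, 241 with TMM, 255 with DESeq2 factors, 655 when thinned, 230 with the GC trend removed, 251 when both libraries had to pass, and 1592 and 58 at 1.5-fold and 3-fold. All 51 rises were shared under TMM, DESeq2 factors and the lower floor, and 38 with the GC trend removed, under which 206 of the 410 falls were shared.

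From 1 h to 2 h the rises (29) were 103 with the lower floor, 57 with a pseudocount, 132 with counts, 170 when thinned, and 182 and 6 at the other thresholds, and the falls (75) were 186, 177 with counts, 230 when thinned, and 468 and 7. Genotype differences upward (370) were 784 with TMM, 665 with DESeq2 factors, 226 with the GC trend removed, and 1214 and 48 at 1.5-fold and 3-fold, and downward (1226) were 744 with TMM, 788 with the GC trend removed, and 2735 and 336.

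The collagen median was 0.00 without a filter on TPM, when most chains are at the floor, and -1.27 at 2 h alone. The matrix median was -0.52 with TMM, -0.55 with DESeq2 factors, -0.52 at 1 h alone and -0.55 with the GC trend removed. That of sterol genes was -0.50 and -0.52 with the 2 factors, that of lysosomal proteins -0.47 and -0.49 and, at 1 h, -0.51. The ribosomal protein median was 0.34 with counts, 0.47 with TMM, 0.44 with DESeq2 factors and 0.35 when thinned. Medians of the other sign numbered 34 of 396 over 13 lists, none of which had a reported median beyond 0.14 from 0, and 10 of them came with TMM, 9 with DESeq2 factors and 6 with the GC trend removed. Those whose reported interval did not hold 0 were ER-Golgi transport (0.11 with TMM, 0.089 with DESeq2 factors), oxidative phosphorylation (0.073 and 0.047) and core histones (0.014 with TMM, 0.16 with the GC trend removed). Zfp738 was at 1.13 and Zfp799 at 0.15 with counts, and 1.16 and 0.16 when thinned, where their TPM gave negative values.

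Over all settings, 1768 values of single genes moved no further than their counting interval reaches, on average, to either side. Where that interval was not finite, 1 log2 unit was used. Of the rest, 583 moved further and 4 of called genes changed sign. Of the list medians 342 stayed within the binomial interval of the median over members, 48 moved further, and 6 took the other sign although their reported interval did not hold 0. Low counts, copies that share reads and the shallow WT libraries limit single-gene values.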
